A study of Mus musculus with 23 samples.

Results

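The IL-6 family was followed through 9 of the 47643 genes of the deposited expression table: the cytokines Il6, Lif, Osm and Clcf1, and the receptor chains Il6ra, Osmr, Lifr, Cntfr and Il6st. The genes were taken by symbol, and the set was chosen by their TPM in these libraries. Which contrast served is not recorded, so every comparison below is treated as one that may have chosen them: the p-values describe the members and are not independent support.

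RNA was sequenced from B16F10, a mouse melanoma line derived from C57BL/6, as bulk tumors, as tumor cells sorted from tumors, and as cultured cells. The tumors grew under the skin of male C57BL/6 mice inoculated at 6 to 8 weeks of age. Sorted tumor cells had been freed with collagenase D and enriched by depleting stromal cells on magnetic beads. In each sample type, wild-type control cells were compared with cells given Cas9 protein and 1 of 2 guides against Nr2f6, sg492 or sg495. Nr2f6 encodes an orphan nuclear receptor. The edited cells had been sorted for the Cy3 label of the guide, and whether a clone was derived is not stated in the sources used here. Each of these 9 groups had 2 libraries. A further 5 libraries of wild-type genotype, 2 named IgG_Control and 3 named anti-PD1, carry no sample type in their labels and were analysed apart. Nothing in the sources used here says that libraries of a group came from separate mice or cultures, so p-values measure the spread between libraries, which may be technical.

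IL-6 family cytokines share the signal-transducing receptor chain gp130, encoded by Il6st. Each cytokine adds its own chain: IL-6 binds the receptor encoded by Il6ra, LIF binds the one encoded by Lifr, and oncostatin M in the mouse binds mainly the one encoded by Osmr. Cardiotrophin-like cytokine factor 1 (Clcf1) acts through the ciliary neurotrophic factor receptor (Cntfr). Ligand binding activates JAK kinases, which phosphorylate STAT3, and STAT3 induces Socs3, an inhibitor that closes the loop.

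Values are TPM, which scale transcript abundance for gene length and library total and therefore allow levels of different genes to be compared. TPM do not carry the depth of a library, so no counting interval can be given. Between 11925 and 13899 genes reached 1 TPM per library. Nr2f6 itself measured 25.83 and 25.24 TPM in control bulk tumors, 22.31 and 23.31 in the libraries labelled sg492 and 17.22 and 15.76 in those labelled sg495. In sorted tumor cells Nr2f6 measured 20.32 and 17.73 TPM in control, 19.84 and 25.7 in sg492 and 10.6 and 12.18 in sg495. In cultured cells it measured 31.88 and 32.9 TPM in control, 26.55 and 31.5 in sg492 and 18.55 and 22.43 in sg495. Nr2f6 mRNA was thus lower than in control in every library labelled sg495 but not in both libraries of sorted tumor cells labelled sg492. In these data, directions drawn from those sg492 libraries therefore rest on the label. The paper reports that the knockout was checked by immunoblotting and by sequencing the targeted regions, which concerns the edited cells and not single libraries. Nr2f6 lies on chromosome 8, where 81% (bulk), 86.1% (sorted) and 90.7% (cultured) of the genes tested were lower with sg495 than in control, at median log2 fold changes of -0.25, -0.34 and -0.33, so the lower Nr2f6 values are a limited check of the sg495 labels.

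The family was measured at very unequal levels, and 3 receptor chains, Cntfr, Il6st and Osmr, exceeded every ligand in the 3 melanoma sample types. Of the TPM summed over the 9 genes, Cntfr took 59.2% in bulk tumors, 66.8% in sorted cells and 82.4% in culture. Il6st contributed 27.5%, 26.4% and 15.1% in the same order. Osmr followed with 5.61%, 2.83% and 1.89%, and no other member exceeded 2.1% in any of the 3.

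**Figure D1:**
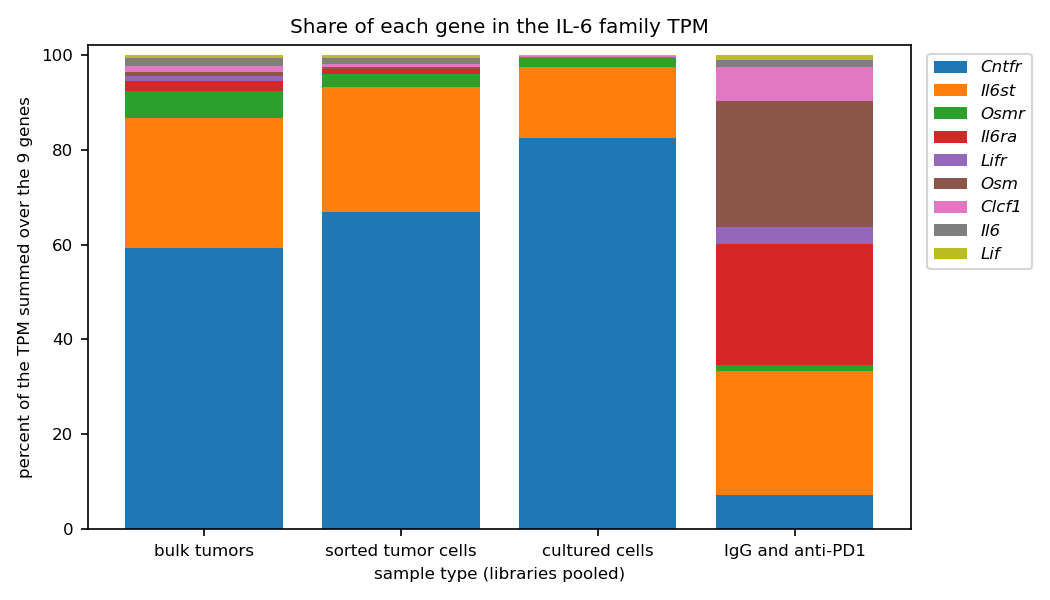
Stacked bars give the percent of the TPM summed over the 9 family genes that each gene took in bulk tumors (6 libraries), sorted tumor cells (6), cultured cells (6) and the IgG and anti-PD1 libraries (5). Cntfr took 59.2% to 82.4% in the 3 melanoma sample types and 7.11% in the antibody libraries, where Osm took 26.6% and Il6ra 25.5%.

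The genes lie on several chromosomes of the mouse (GRCm38, GENCODE M21). Cntfr spans chr4:41657498-41697089 on the minus strand, Il6st chr13:112464070-112510086 on the plus strand and Il6 chr5:30013114-30019981 on the plus strand. Il6ra spans chr3:89864059-89913196 on the minus strand and overlaps Gm42809 on the other strand. Osm (chr11:4236420-4241026) and Lif (chr11:4257557-4272514) are neighbours on the plus strand, and Osmr (chr15:6813577-6874969, minus strand) neighbours Lifr (chr15:7090614-7197489, plus strand). Clcf1 (chr19:4214238-4223490, plus strand) overlaps AC109138.7 on the same strand, and its low values are uncertain to that extent.

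RefSeq promoter windows of 250 bases before the start (GRCm38.p6) were found for 7 of the 9 genes, in 13 windows. Osm and Clcf1 had no entry. The windows below are those of IL-6 and of both chains of its receptor, which were measured at unlike levels in the same cells. Both strands were searched for a STAT motif (TTCNNNGAA), a nuclear receptor half-site (AGGTCA) and an AP-1 motif (TGANTCA), which do not contain each other; matches are in capitals.

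Il6, chr5:30012864-30013113, plus strand: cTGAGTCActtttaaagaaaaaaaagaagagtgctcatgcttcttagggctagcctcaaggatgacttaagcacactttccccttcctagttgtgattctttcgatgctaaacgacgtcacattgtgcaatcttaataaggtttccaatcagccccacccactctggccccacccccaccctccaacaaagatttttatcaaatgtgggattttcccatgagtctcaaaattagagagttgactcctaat

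Il6ra, chr3:89913197-89913446, minus strand: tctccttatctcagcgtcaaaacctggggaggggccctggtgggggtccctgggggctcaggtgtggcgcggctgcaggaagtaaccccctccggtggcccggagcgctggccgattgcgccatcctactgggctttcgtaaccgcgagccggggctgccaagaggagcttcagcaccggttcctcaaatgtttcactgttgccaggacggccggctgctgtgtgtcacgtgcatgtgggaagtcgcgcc

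Il6st, chr13:112463820-112464069, plus strand: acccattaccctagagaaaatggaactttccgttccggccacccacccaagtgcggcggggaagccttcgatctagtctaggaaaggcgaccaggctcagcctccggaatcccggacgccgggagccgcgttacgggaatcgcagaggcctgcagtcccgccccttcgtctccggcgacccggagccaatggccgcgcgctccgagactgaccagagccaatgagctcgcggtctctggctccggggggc

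The AP-1 motif lay 249 bases before the start of Il6 and 228 before that of Lif, and 6.75% of 32851 promoters of the same length hold it. The half-site lay 247 bases before 1 start of Lifr and is held by 14% of promoters. The STAT motif, held by 7.02%, was in none of the 13 windows. These are not 13 separate promoters: 6 belong to Cntfr, with some overlapping each other. All 250 bases of the Osmr window are annotated as exon. A match is only a match of letters.

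The sample types were compared first, each as 6 libraries over the 3 guide groups. limma was run on log2(TPM + 1) of the genes that averaged 1 TPM or more, and a call required both an adjusted p (Benjamini-Hochberg) under 0.05 and a change of 1.5-fold or more. Only Cntfr, Il6st and Osmr reached that level over all 18 libraries. In bulk samples, fewer cells of a type and less RNA per cell cannot be told apart.

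Cntfr, the receptor chain that anchors CNTF to the cell surface, was lower in sorted tumor cells than in culture. Its lowest, median and highest values were 79.33, 98.02 and 102.1 TPM for cultured cells, 42.66, 50.09 and 54.27 TPM for sorted cells, and 43.85, 52.58 and 69.05 TPM for bulk tumors. No sorted library reached the lowest cultured library, a separation seen downward in 21.3% of all genes. The log2 fold change of sorted against cultured cells was -0.91 (SE 0.066, 95% interval -1.05 to -0.77, limma adjusted p = 1.06e-07), and Cntfr was the 1 member called of 3 tested, where 23.6% of all 13152 genes were called. Bulk and sorted tumor libraries overlapped in Cntfr, with a log2 fold change of 0.10 (SE 0.066, 95% interval -0.04 to 0.24, limma adjusted p = 0.229).

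Osmr, the oncostatin M receptor chain, was higher in bulk than in sorted tumors. It measured 3.15, 5.46 and 6.26 TPM (lowest, median, highest) for bulk tumors, 1.45, 1.83 and 3.05 for sorted cells and 1.34, 1.995 and 3.13 for culture. Every bulk library lay above every sorted one, as for 14.2% of all genes. The log2 fold change of bulk against sorted was 0.97 (SE 0.0909, 95% interval 0.77 to 1.17, limma adjusted p = 1.98e-06), the 1 member called of 3, against 13.6% of all genes. An unadjusted p below 0.05 was reached by 2 of the 3 members in each of these comparisons, and by 55.6% (bulk against sorted) and 69.1% (sorted against cultured) of all genes. Sorted and cultured cells overlapped (log2 fold change -0.02, 95% interval -0.22 to 0.17, limma adjusted p = 0.836). Requiring a mean of 5 TPM removed Osmr from the test.

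Il6st, the shared chain gp130, varied least of the 3. It measured 20.24, 25.65 and 28.41 TPM for bulk tumors, 16.83, 19.8 and 21.64 for sorted cells and 13.9, 17.55 and 19.31 for culture. Both differences were below the fold threshold, at log2 0.32 for bulk against sorted (SE 0.0537, limma adjusted p = 0.000295) and 0.18 for sorted against cultured (SE 0.0537, limma adjusted p = 0.0100). In control libraries alone, the bulk difference of Il6st was -0.01.

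Markers of other cells also differed between the sample types. The summed TPM of 10 leukocyte markers was 412.1 to 942.4 for bulk tumors, 11 to 14.82 for sorted cells and 6.43 to 8.71 for culture. The 10 fibroblast markers summed to 397.8 to 1086 TPM in bulk tumors, 4.82 to 8.46 in sorted cells and 10.59 to 15.81 in culture. For the 10 endothelial markers the sums were 127.9 to 148.3, 35.8 to 56.6 and 18.16 to 20.22 TPM in the same order. The defining leukocyte marker Ptprc (CD45) was listed at 0 in all 6 cultured libraries and at no more than 0.15 TPM in the sorted ones. Melanocyte markers were high throughout, at 16070 to 18840 TPM summed over 12 genes. The part of these cells in the bulk values of Osmr was not tested.

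The remaining members averaged under 1 TPM over the 18 libraries and were tested only when no expression filter was applied, where 12.3% (sorted against cultured) and 9.29% (bulk against sorted) of 27657 genes were called. Il6, the pro-inflammatory cytokine that names the family, was listed at 0 in 5 of 6 cultured libraries and at 0.11 TPM in the other. It measured 0.13, 1.055 and 1.62 TPM (lowest, median, highest) in sorted cells and 0.72, 1.515 and 1.97 in bulk tumors. All sorted libraries lay above all cultured ones, as did those of 18.6% of the genes that passed the filter, and the difference was called without the filter (log2 0.90 on the log2(TPM + 1) scale, SE 0.134, limma adjusted p = 0.00024). Il6ra, the IL-6 binding chain, rose in steps from 0.03 to 0.11 TPM in cultured cells to 0.29 to 1.1 in sorted cells and 0.96 to 2.9 in bulk tumors. Without the filter both steps of Il6ra were called, at log2 0.69 (SE 0.108, limma adjusted p = 0.000347) and 0.70 (SE 0.108, limma adjusted p = 0.000414).

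Lifr, the LIF receptor chain, was near 0 in the melanoma cells themselves. It ranged over 0 to 0.09 TPM in sorted cells, 0.06 to 0.26 in culture and 0.51 to 1.85 in bulk tumors, and the bulk difference was called without the filter (log2 0.97, SE 0.078, limma adjusted p = 2.27e-06). Lif, a ligand with roles in stem cell renewal, stayed between 0.05 and 0.97 TPM across the 18 libraries. Osm, a ligand made largely by leukocytes, measured 0.46 to 1.3 TPM in bulk tumors, 0.04 to 0.6 in sorted cells and 0 to 0.19 in culture. Clcf1 measured 0.7 to 2.08 TPM in bulk tumors, 0.17 to 0.87 in sorted cells and 0.11 to 0.26 in culture. The differences of Lif, Osm and Clcf1 were below the fold threshold or the adjusted p threshold without the filter.

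**Figure D2:**
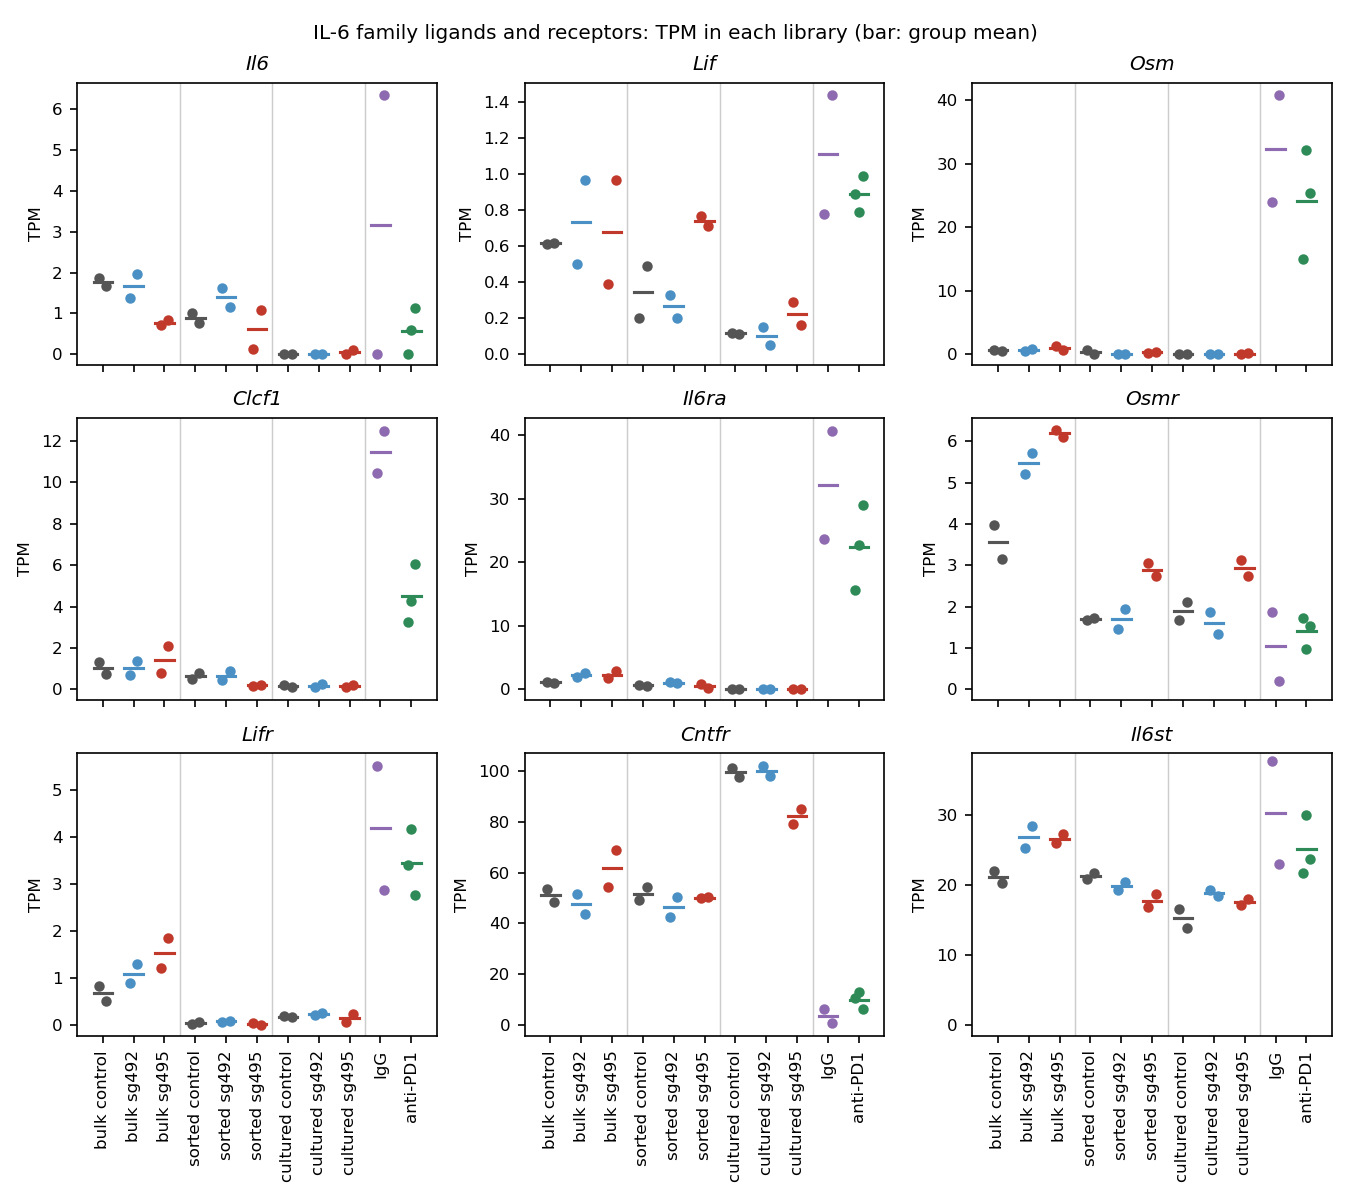
Each panel plots the TPM of 1 family gene (vertical axis, linear) by group (horizontal axis); points are libraries and bars are group means, with 2 libraries per group except 3 for anti-PD1. Cntfr is highest in the 6 cultured libraries (79.33 to 102.1 TPM), Osmr in the 6 bulk tumor libraries (3.15 to 6.26 TPM), and Osm and Il6ra in the IgG and anti-PD1 libraries.

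Genes acting downstream also differed between sample types. Of 22 target genes tested, 11 were called higher in sorted than in cultured cells and 0 lower, where 14.6% and 8.99% of all genes were called in these directions, with a median log2 fold change of 0.79 against -0.0025 over all genes. The lists of pathway genes were chosen with earlier results of these data known. Counts and medians over them, here and below, are description and not independent support. Fos, a subunit of AP-1, measured 278.4 TPM on average in sorted cells and 1.052 in cultured cells. Klf4, a transcription factor, measured 119.7 against 1.79. Stat3 (60.55 against 29.3 TPM) and Socs3 (10 against 3.47 TPM) were called as well (log2 0.96 and 1.20, limma adjusted p = 5.85e-07 and 8.45e-06). In bulk tumors Fos fell to 19.11 TPM and Klf4 to 7.448 TPM. Sorted cells had passed through enzyme digestion, and its part in the values of Il6, Fos and Klf4 was not tested.

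Between bulk and sorted tumors, 8 of 22 targets were called higher and 8 lower, against 9.26% and 4.31% of all genes. Hp, an acute-phase protein, measured 14.8 TPM in bulk and was listed at 0 in sorted cells, and Il4ra, an interleukin receptor chain, measured 12.18 against 0.5683 TPM. Of 7 inhibitors, 4 were called higher in bulk tumors: Socs1, Socs2, Socs3 and Cish, where 9.26% of all genes were called higher. Counts over both lists are description only, as above. The log2 fold changes were 1.74 for Socs1 (SE 0.128, limma adjusted p = 1.95e-07) and 0.62 for Socs3 (SE 0.142, limma adjusted p = 0.00292). The Socs3 call was lost in control libraries alone (log2 0.24, limma adjusted p = 0.523) and, with a change under 1.5-fold, without control replicate 1 or sg492 replicate 2 of the bulk tumors or sg495 replicate 1 of the sorted cells (log2 0.47 to 0.56).

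Across the 18 libraries, the genes most like Cntfr by Pearson r of log2(TPM + 1) were Dlgap5 (0.974) and Knstrn (0.967). For Il6st they were Rab8b (0.944) and Gm2a (0.924), and for Osmr Socs1 (0.951) and Tgm2 (0.948). These values describe libraries that share sample type and are no test.

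Editing with sg495 was compared with control within each sample type. sg492 was compared with the same control libraries, so the results of both guides share them. In bulk tumors Osmr measured 3.98 and 3.15 TPM in control, 5.21 and 5.71 in sg492 and 6.26 and 6.11 in sg495. In sorted cells it measured 1.67 and 1.72 TPM in control, 1.45 and 1.94 in sg492 and 3.05 and 2.73 in sg495. In cultured cells it measured 1.69 and 2.12 TPM in control, 1.87 and 1.34 in sg492 and 3.13 and 2.75 in sg495. Both sg495 libraries lay above both controls in every sample type, which held for 2.59% of the 11711 genes tested in all 3 and for 31.6%, 17.9% and 27.5% of genes in bulk, sorted and cultured libraries taken singly. The sg492 libraries lay above control in bulk tumors alone, as did 31.1% of all genes there.

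The log2 fold change of Osmr with sg495 was 0.66 for bulk tumors (SE 0.156, 95% interval 0.28 to 1.04, limma adjusted p = 0.125), 0.53 for sorted cells (SE 0.235, 95% interval -0.04 to 1.10, limma adjusted p = 0.357) and 0.44 for culture (SE 0.179, 95% interval 0.01 to 0.88, limma adjusted p = 0.176). No member passed the call in these 3 comparisons, where 0.0293%, 0.899% and 2.77% of all genes did. At an unadjusted limma p below 0.05 there were 0 of 3 members in sorted cells (15.6% of all genes) and 2 of 3 in culture (27.8%). A fit of all 18 libraries called Osmr in bulk tumors (limma adjusted p = 0.0312). That fit called 395 of 13152 genes there, against 4 in the main fit. The sg495 effects on Osmr were not called as different between sample types, at 0.13 for bulk minus sorted (95% interval -0.35 to 0.62, limma adjusted p = 0.834) and 0.09 for sorted minus cultured (95% interval -0.40 to 0.57, limma adjusted p = 0.896).

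In bulk tumors, 7 of the 9 members were tested, and 4 had an unadjusted limma p below 0.05, a level that 15.7% of all genes reached. Il6 measured 1.87 and 1.66 TPM in control, 1.37 and 1.97 in sg492 and 0.72 and 0.83 in sg495, so that sg495 lay below both other groups (below control for 14.3% of all genes). Its log2 fold change with sg495 was -0.64 (SE 0.23, limma adjusted p = 0.258). Il6ra measured 1.24 and 0.96 TPM in control, 2.02 and 2.52 in sg492 and 1.74 and 2.9 in sg495. Both guides lay above control in Il6ra, at log2 0.64 each (SE 0.252, limma adjusted p = 0.592 for sg492 and 0.300 for sg495). In bulk tumors 31.1% (sg492) and 31.6% (sg495) of all genes lay above the same control libraries in this way.

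Lifr measured 0.83 and 0.51 TPM in control bulk tumors, 0.88 and 1.29 in sg492 and 1.22 and 1.85 in sg495. Both guides thus lay above control in Lifr, as for 31.1% (sg492) and 31.6% (sg495) of all genes. Its log2 fold change with sg495 was 0.60 (SE 0.268, 95% interval -0.05 to 1.25, limma adjusted p = 0.362). Clcf1 overlapped between all 3 bulk groups, at 1.34 and 0.77 TPM in control, 0.7 and 1.39 in sg492 and 0.79 and 2.08 in sg495 (log2 0.21 with sg495, 95% interval -0.67 to 1.08). Lif and Osm averaged under 1 TPM in bulk tumors. Lif measured 0.61 and 0.62 TPM in control against 0.39 and 0.97 in sg495, and Osm 0.61 and 0.56 against 1.3 and 0.66.

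The ligands in sorted tumor cells lay under the expression filter. Among genes that passed it, 17.9% had both sg495 libraries above both controls there and 31.5% below. Lif measured 0.2 and 0.49 TPM in control, 0.33 and 0.2 in sg492 and 0.77 and 0.71 in sg495, with sg495 above both other groups. Clcf1 measured 0.49 and 0.79 TPM in control, 0.44 and 0.87 in sg492 and 0.17 and 0.23 in sg495, with sg495 below both. Without the filter the log2 fold change with sg495 was 0.38 for Lif (SE 0.147, limma adjusted p = 0.437) and -0.45 for Clcf1 (SE 0.179, limma adjusted p = 0.46). Il6 measured 1.02 and 0.76 TPM in control and 0.13 and 1.09 in sg495, so the gap between both sg495 libraries was wider than that between the group means.

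For the shared chain Il6st the sg495 difference had unlike signs in bulk and sorted tumors. In bulk tumors it measured 21.93 and 20.24 TPM in control, 25.27 and 28.41 in sg492 and 26.03 and 27.2 in sg495. In sorted tumor cells it measured 20.82 and 21.64 TPM in control, 19.23 and 20.37 in sg492 and 16.83 and 18.66 in sg495. In sorted cells both sg495 libraries lay below both controls, as for 31.5% of all genes. The sg495 difference was log2 0.32 in bulk (limma adjusted p = 0.182) and -0.25 in sorted cells (limma adjusted p = 0.321). Tested directly, bulk minus sorted was 0.57 (SE 0.132, 95% interval 0.28 to 0.86), which did not pass the call (limma adjusted p = 0.0994). In both contrasts of the sg495 effect limma called 0 of 3 members, where 0.122% (bulk minus sorted) and 2.51% (sorted minus cultured) of all genes were called. Il6st alone had an unadjusted p below 0.05 in each, a level reached by 16% and 18.7% of all genes.

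Leukocyte and fibroblast marker sums also separated sg495 from control in bulk tumors, while endothelial and neutrophil sums overlapped. The 10 leukocyte markers summed to 551.2 and 412.1 TPM in control tumors, 635.8 and 744.5 in sg492 and 842.3 and 942.4 in sg495, and the 10 fibroblast markers to 492.6 and 397.8, 557.5 and 644.1, and 654.4 and 1086 TPM. The part of these cells in the bulk values of Osmr, Il6ra, Lifr and Il6st was not tested. In sorted cells the leukocyte markers summed to 11.77 and 11 TPM in control and 14.73 and 14.82 in sg495, and the 10 macrophage markers to 5.43 and 3.96 against 7.98 and 13.57 TPM, again without overlap. In culture the marker lists differed in direction. With sg495 the leukocyte markers lay above control, at 8.71 and 8.43 against 6.43 and 7.37 TPM. The macrophage markers there summed to 3.31 and 2.45 TPM against 1.83 and 1.34. The fibroblast markers lay below control, at 10.59 and 11.35 against 13.37 and 12.8 TPM, and endothelial and neutrophil sums overlapped. In both of these culture groups, 5 of the 10 leukocyte markers had no measured TPM. Whether the sums in culture reflect other cells was not tested. The part of other cells in the Osmr values of sorted cells was not tested either.

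In culture both sg495 libraries lay below both controls in Cntfr. It measured 101.37 and 97.94 TPM in control, 102.1 and 98.09 in sg492 and 79.33 and 85.12 in sg495. The difference was log2 -0.27 (SE 0.0519, 95% interval -0.40 to -0.15, limma adjusted p = 0.0253), below the fold threshold, and 28.9% of all genes lay below control in the same way. In sorted cells the difference was -0.05 (95% interval -0.30 to 0.21) and in bulk tumors 0.26 (95% interval -0.08 to 0.60).

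With sg492, no member was called in any sample type, where 0%, 0.0388% and 0.05% of all genes were called in bulk, sorted and cultured libraries. The unadjusted limma p was below 0.05 for 3 of 7 members in bulk tumors (8.3% of all genes), for 0 of 3 in sorted cells (7.13%) and for 1 of 3 in culture (10.5%). That 1 was Il6st, at 16.52 and 13.9 TPM in control and 19.31 and 18.44 in sg492 (log2 0.30, SE 0.0941, limma adjusted p = 0.380), above control as were 27.2% of all genes.

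**Figure D3:**
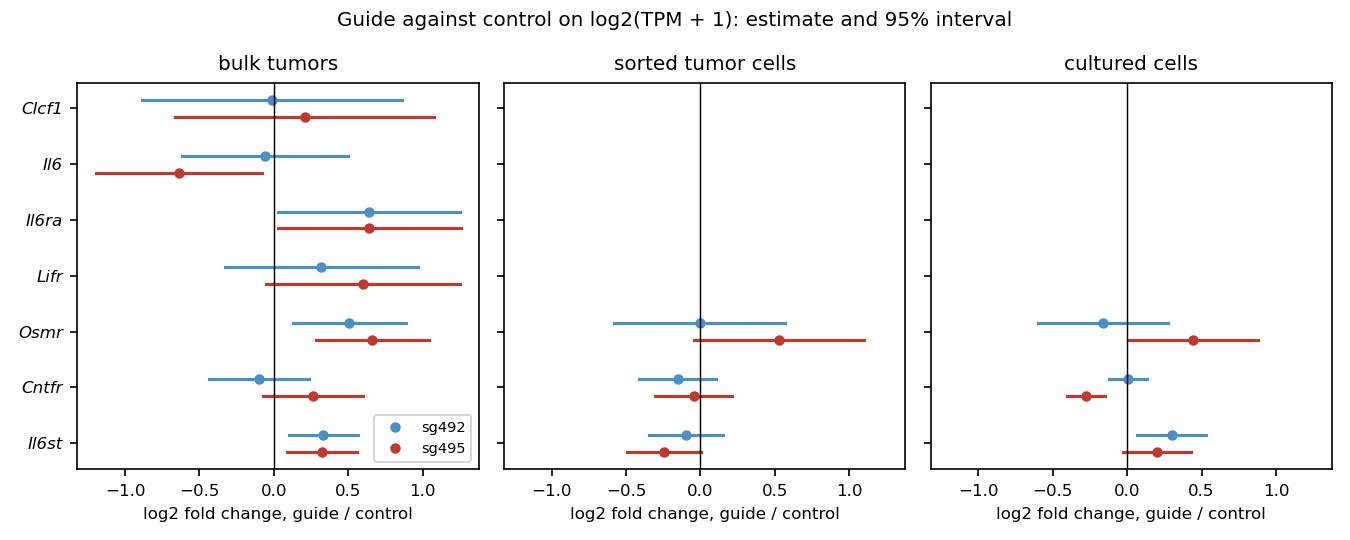
Points give the log2 fold change of each guide against control (horizontal axis, on log2(TPM + 1)) for the members tested in each sample type (vertical axis), and lines give 95% intervals from the limma fit. Osmr with sg495 lies above 0 in all 3 panels (0.66, 0.53 and 0.44), and its interval in sorted tumor cells reaches -0.04.

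In sorted tumor cells, 1 of 11 signalling genes of the list reported here was called higher with sg495, where 0.605% of all genes were. Stat3, the main transcription factor of the pathway, measured 48.68 and 41.68 TPM in control, 51.8 and 45.57 in sg492 and 78.5 and 97.07 in sg495 (log2 0.94, SE 0.138, limma adjusted p = 0.0465). The Stat3 call was lost with a pseudocount of 0.1 (limma adjusted p = 0.0514), without an expression filter (limma adjusted p = 0.117), with chromosome 8 centered on its median in each library, an alternative chosen after seeing the data (log2 0.94 as before, limma adjusted p = 0.0619), and in all 6 fits that left out 1 library, with adjusted p from 0.0955 to 0.364. Socs3 measured 9.63 and 9.81 TPM in control, 5.83 and 5.21 in sg492 and 12.62 and 16.9 in sg495 (log2 0.54, SE 0.166, limma adjusted p = 0.210). In bulk tumors Stat3 measured 61.54 and 55.99 TPM in control, 68.51 and 89.86 in sg492 and 89.73 and 94.46 in sg495 (sg495 log2 0.64, SE 0.132, limma adjusted p = 0.105). This Stat3 difference was called in the fit of all 18 libraries (limma adjusted p = 0.0246), where 395 of 13152 genes were called. In culture Stat3 measured 31.45 and 27.61 TPM in control and 31.6 and 25.34 in sg495. Of 17 targets tested in that sample type, 1 was called higher (Ccnd1, a cyclin, log2 0.93, limma adjusted p = 0.000729) and 1 lower (Vegfa, a growth factor for blood vessels, log2 -0.94, limma adjusted p = 0.00192). Of all genes, 0.733% were called higher and 2.03% lower with sg495 in culture.

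**Figure D4:**
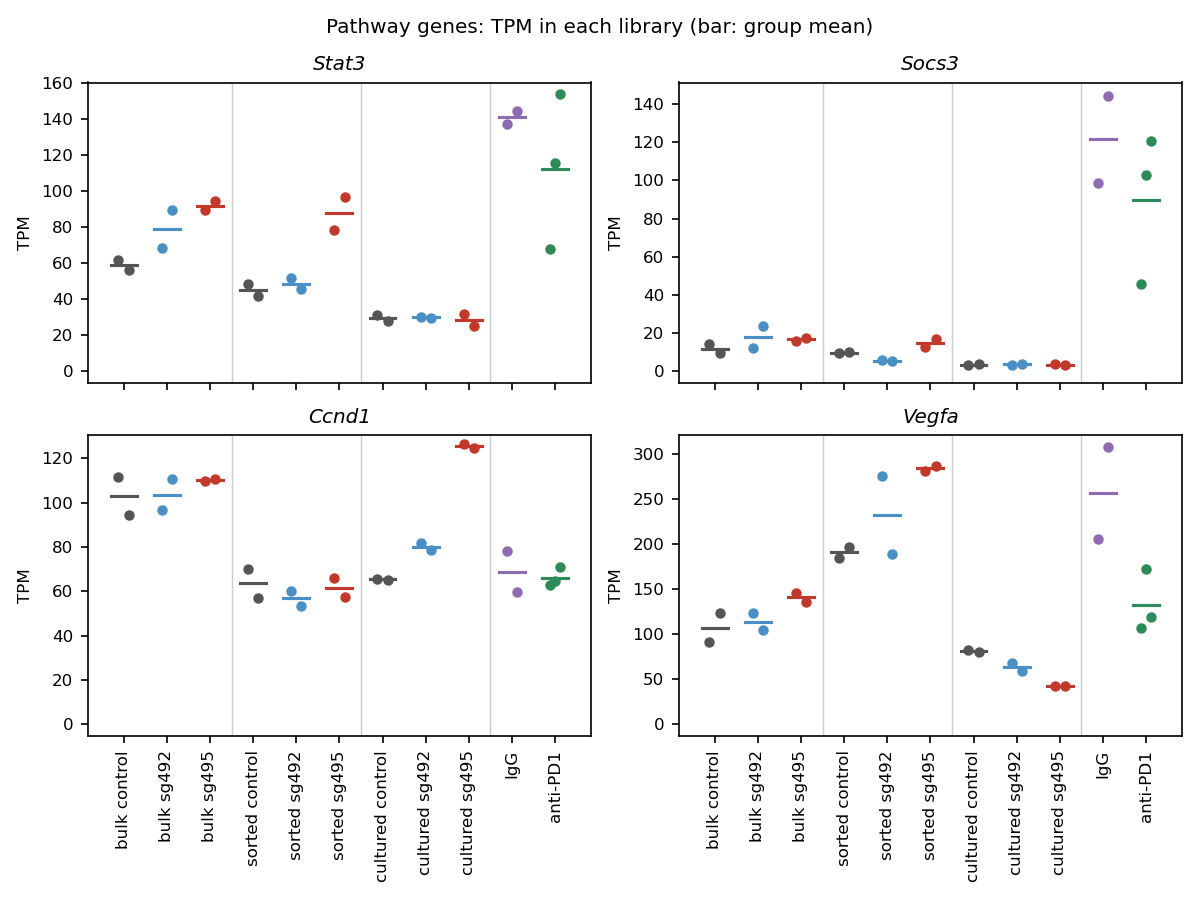
The TPM of Stat3, Socs3, Ccnd1 and Vegfa (vertical axis, linear) are plotted by group (horizontal axis); points are libraries and bars are group means. In sorted cells the sg495 libraries of Stat3 sit at 78.5 and 97.07 TPM against 48.68 and 41.68 in control, and in culture those of Ccnd1 sit at 126.69 and 124.65 TPM against 65.66 and 65.1.

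The libraries named IgG_Control and anti-PD1 had another make-up. Leukocyte markers summed to 6409 to 10810 TPM and melanocyte markers to 1768 to 5435 TPM. Mitochondrial genes took 8.63% to 21.9% of their TPM, against 2.56% to 8.02% in the other 18. Osm measured 23.95 and 40.79 TPM with IgG and 15, 32.22 and 25.34 with anti-PD1, and Il6ra 23.6 and 40.69 against 15.72, 22.66 and 29.0 TPM. Levels in these libraries were not tested against the other sample types, because their own type is not given.

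Clcf1 measured 10.42 and 12.48 TPM with IgG and 3.25, 4.25 and 6.04 with anti-PD1, so that the groups did not overlap, which held for 15.8% of all genes in that direction. The log2 fold change was -1.20 (SE 0.324, limma adjusted p = 0.608). Cntfr measured 6.15 and 0.81 TPM with IgG and 10.5, 12.91 and 6.32 with anti-PD1 (log2 1.55, SE 0.602, limma adjusted p = 0.608), and 9.57% of all genes separated in that direction. Without IgG_Control replicate 1 the Cntfr value was 2.54 and without IgG_Control replicate 2 it was 0.56. A replicate block, although replicate numbers are not stated to pair libraries, called Cntfr (log2 1.81, limma adjusted p = 0.0157). With that block 514 of 13418 genes were called, against 0 without it. The melanocyte markers summed to 4204 and 1768 TPM in the same IgG libraries and to 5435, 5375 and 3571 in the anti-PD1 libraries, and their part in the Cntfr values was not tested. Of 8 members tested, 0 were called by limma, as were 0% of all genes. An unadjusted p below 0.05 was reached by 2 of the 8 and by 7.18% of all genes.

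The other members overlapped between the antibody groups. Il6 was listed at 0 and 6.34 TPM with IgG and at 0, 0.58 and 1.14 with anti-PD1, a wide spread within both groups. Il6st measured 37.64 and 23.02 TPM with IgG and 21.64, 29.92 and 23.67 with anti-PD1 (log2 -0.24, 95% interval -0.91 to 0.44). Lifr measured 5.51 and 2.88 against 3.4, 4.17 and 2.77 TPM, Osmr 1.88 and 0.2 against 1.72, 0.98 and 1.54 TPM, and Lif 0.78 and 1.44 against 0.89, 0.79 and 0.99 TPM. Downstream, Stat3 measured 137.73 and 144.82 TPM with IgG and 67.69, 115.67 and 154.1 with anti-PD1, and Socs3 98.67 and 144.29 against 45.77, 102.68 and 120.42 TPM. Neither was called (limma adjusted p = 0.677 and 0.672).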

How the data were processed

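RNA-seq libraries of bulk B16F10 tumors, sorted tumor cells and cultured cells (control, sg492 and sg495, 2 each) and of the IgG (2) and anti-PD1 (3) groups were used as labelled. Per the labels and the study's methods, the authors trimmed reads with cutadapt 2.3, aligned them to mm10 with STAR 2.7.0d, quantified genes with RSEM 1.3.1, and deposited TPM to 2 decimals. RSEM counts were not used here, so no count test was run. The depth of each library is unknown here beyond the range that the study's methods give. Members and gene lists were chosen with earlier results of these data known. The named genes were all 9 members, Stat3 and Socs3 in any comparison, other listed pathway genes called (at most 8 per comparison, by absolute log2 fold change), Nr2f6 as a check of the labels, and 2 genes per member with the highest Pearson r. Results for some listed genes are not reported here.

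log2(TPM + 1) was fitted with limma 3.58.1 (R 4.3.3; trend=TRUE), for genes averaging 1 TPM or more over the fit; tests were 2-sided. Guides were fitted per sample type (6 libraries), sample types and interactions over 18 libraries, and anti-PD1 against IgG over 5. Alternatives were median-of-ratios scaling, a pseudocount of 0.1, no filter or a filter at 5 TPM, a replicate block, an 18-library fit, controls only, each library left out, and chromosome 8 centering (added after seeing the data). The procedure was tested on simulated data. Descriptions and figures came from pandas 2.3.3 and matplotlib 3.10.9 under Python 3.11.15.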

Additional observations from a re-analysis of the deposited data

Results flagged for a closer look

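Of the 9 members, 3 were tested for a difference of the sg495 effect between sample types, and none was called by limma, with 1 of the 3 (Il6st) at an unadjusted p below 0.05. Of the other pathway genes reported here, 3 were called as different between sorted tumor cells and cultured cells, on the log2(TPM + 1) scale. They were 1 of 11 signalling genes tested and, of 22 targets tested, 1 higher and 1 lower. No listed inhibitor, other ligand or other receptor gene was called. Of all 13152 genes, 2.51% were called in this contrast. The sg495 effect in sorted cells minus that in culture was 1.51 for Vegfa (SE 0.226, limma adjusted p = 0.00431) and 1.00 for Stat3 (SE 0.206, limma adjusted p = 0.0212). These differences are signed. Vegfa was called lower with sg495 in culture, so its value does not give a larger effect in sorted cells. For Ccnd1 the difference was -0.97 (SE 0.156, limma adjusted p = 0.00656), since Ccnd1 measured 126.69 and 124.65 TPM with sg495 against 65.66 and 65.1 in control culture, and 66.2 and 57.2 against 70.12 and 57.17 TPM in sorted cells. The Stat3 difference lost its call without an expression filter (limma adjusted p = 0.0545) and in 5 of the 18 fits that left out 1 library, with adjusted p from 0.0504 to 0.0958. These left out control replicate 1, control replicate 2 or sg495 replicate 2 of the cultured cells, or control replicate 2 or sg495 replicate 2 of the sorted cells.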

How the results depend on the processing

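With 2 libraries per group and no counts, depth cannot be weighed, and several members lie near 1 TPM, where the pseudocount shrinks fold changes. The number of members called changed in few settings: to 1 (Osmr) for sg495 in bulk tumors in the fit of all 18 libraries, to 3 without an expression filter for sorted against cultured cells (Cntfr, Il6, Il6ra) and for bulk against sorted (Il6ra, Lifr, Osmr; 3415 and 2570 of 27657 genes were called there), to 0 with a mean of at least 5 TPM for bulk against sorted, and to 1 (Cntfr) for anti-PD1 with a replicate block. Leaving out 1 library gave 0 members in each guide, interaction and anti-PD1 comparison and 1 in each sample type comparison.

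Replicate numbers are not stated to pair libraries. Differences between replicates 1 and 2 correlated between groups from -0.126 to 0.051. With the replicate block, limma called 514 genes for anti-PD1 against 0 without it, 0 against 4 for sg495 in bulk tumors and 79 against 116 in sorted cells, and Stat3 (adjusted p = 0.101) lost its call in sorted cells. In the 18-library fit 395 genes were called for sg495 in bulk tumors against 4, and without the filter 0; in sorted cells these counts were 399 and 3 against 116.

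Of 1030 values for single genes, 27 changed sign, 20 lost and 3 gained a call. Sign changes were to -0.0253 for Cntfr and -0.0105 for Stat3 (sg492, culture) with median-of-ratios scaling and to -0.0204 for Cntfr and -0.0103 for Il6st (bulk against sorted) in controls only. Leaving out 1 library moved log2 fold changes across 0 in these ranges. For sg492 they were -0.26 to 0.23 for Clcf1, -0.21 to 0.0176 for Cntfr and -0.22 to 0.10 for Il6 in bulk tumors, -0.14 to 0.13 for Osmr and -0.0027 to 0.22 for Stat3 in sorted cells, and -0.0224 to 0.0348 for Cntfr and -0.0706 to 0.11 for Stat3 in culture. For sg495 they were -0.11 to 0.0223 for Cntfr in sorted cells, and -0.21 to 0.10 for Stat3 and -0.0291 to 0.0938 for Socs3 in culture. Osmr ranged from -0.073 to 0.0252 for sorted against cultured cells and from -0.0206 to 0.19 for the sg495 effect in sorted minus cultured, and Socs3 from -0.33 to 0.20 for bulk minus sorted. For anti-PD1 the ranges were -0.58 to 0.11 for Il6st, -0.56 to 0.18 for Lifr and -0.27 to 0.99 for Osmr. The cause of these changes was not tested.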
